A study of Arabidopsis thaliana with 24 samples.

Results

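Rosettes of *gnat2* and WT plants that stayed in control light (C) were compared across 27826 transcripts. The aim was to describe how the leaf transcriptome of *gnat2* differs from that of WT before any light stress is applied. The comparison holds the 4 *gnat2* and the 4 WT arrays labelled as control conditions, which are 8 of the 24 arrays of the study. The plants were Arabidopsis of the ecotype Col-0 (WT) or carried the T-DNA insertion SALK_033944 in *GNAT2* in this background. They were 4.5 weeks old, were grown on soil in short days at 120 µmol photons per square metre and second, and were harvested after 2 h of further illumination at this intensity that began 2 h after the onset of light. The other 16 arrays hold both genotypes after 2 h of darkness (D) or of high light (HL) at 1000 µmol, 4 per group. They entered the estimate of the spread and are used here to set the control-light differences beside those in other light. *gnat2* is represented by 1 insertion allele. An effect of the lost protein thus cannot be told apart from an effect of the inserted DNA on nearby genes. Nor can it be told apart from any other difference between this line and WT, also for distant genes. Replicates were biological, as labelled, and the p-values measure the spread between such samples.

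GNAT2, also called NSI, is a chloroplast enzyme of the GCN5-related N-acetyltransferase family that transfers acetyl groups to the N-termini and to lysine side chains of plastid proteins. Plants without it cannot carry out state transitions, the redistribution of light-harvesting complexes between the photosystems when the spectrum or intensity of light changes. Transcripts of chloroplast proteins come from the nucleus and from the plastid genome, and the amount of each can be set by plastid-to-nucleus signalling, the circadian clock and hormones.

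Values are log2 RMA signals, so that a difference of 1 is a 2-fold change. All arrays were brought to one distribution and each has a median of 2.35, and values below it were not shown to lie above background. The most abundant transcripts, such as *RBCS1A*, share the top of that distribution on every array, and a difference between them cannot be seen. Within the genotypes, pairs of arrays had a Pearson's r of 0.990 to 0.992 in *gnat2* and 0.981 to 0.984 in WT (across transcripts, which are no independent replicates), and the SD was larger in WT for 69.5% of transcripts. The 3 mesophyll markers had log2 fold changes between -0.14 and 0.03, and none of the markers of leaf cell types, shoot apex, root, flower and seed was called. The 4 phloem markers had negative values, from -0.08 for *SWEET11* to -0.90 for *SWEET12*, which narrowly missed the threshold, and the guard cell marker *HT1* had 0.58 (adjusted p = 0.0671). The 4 markers of shoot apex and dividing cells and the 4 of flower and seed had means below the array median in both genotypes. A difference in the number of cells of a type and one in the RNA per cell cannot be told apart in these rosettes.

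The transcript of the disrupted gene, *GNAT2* (AT1G32070), had log2 values of 6.30, 6.19, 6.13 and 5.61 on the WT arrays and 2.25, 1.74, 1.75 and 2.39 on the *gnat2* arrays. The groups did not overlap, and the log2 fold change was -4.03 ± 0.19 (SE, 4 against 4 arrays, adjusted p = 9.68e-13 from limma). *gnat2* C replicate 4 lay above the array median and the other 3 *gnat2* arrays below it. The 7 other genes of plastid GNAT enzymes, *GNAT1*, *GNAT3* to *GNAT7* and *GNAT10*, were not called. Their log2 fold changes lay between -0.28 (*GNAT6*, SE 0.12, adjusted p = 0.262) and 0.16 (*GNAT7*, SE 0.15, adjusted p = 0.653). *GNAT7*, the family member with the highest values, had 7.34, 7.64, 7.58 and 7.21 in WT and 7.47, 7.66, 7.57 and 7.69 in *gnat2*, and its groups overlapped.

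Next to *GNAT2* in the annotated gene order lies *PRK* (AT1G32060), which encodes phosphoribulokinase, the Calvin-Benson cycle enzyme that makes the acceptor of CO2, and the annotated spans of both genes overlap. *PRK* had log2 values of 9.02, 9.17, 9.32 and 9.38 in WT and 8.26, 8.27, 8.23 and 8.14 in *gnat2*. All *gnat2* values lay below all WT values, with a log2 fold change of -0.997 ± 0.13 (SE, adjusted p = 2.08e-04). Of the 10 annotated genes on either side of *GNAT2*, 14 were measured, and *PRK* was the 1 that was called. *LrgB* (AT1G32080), which lies on the other side and encodes a plastid envelope protein, had a log2 fold change of 0.23 ± 0.12 (SE, adjusted p = 0.367). The 13 neighbours that were not called had log2 fold changes between -0.49 and 0.65, with adjusted p of 0.181 or higher.

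**Figure D1:**
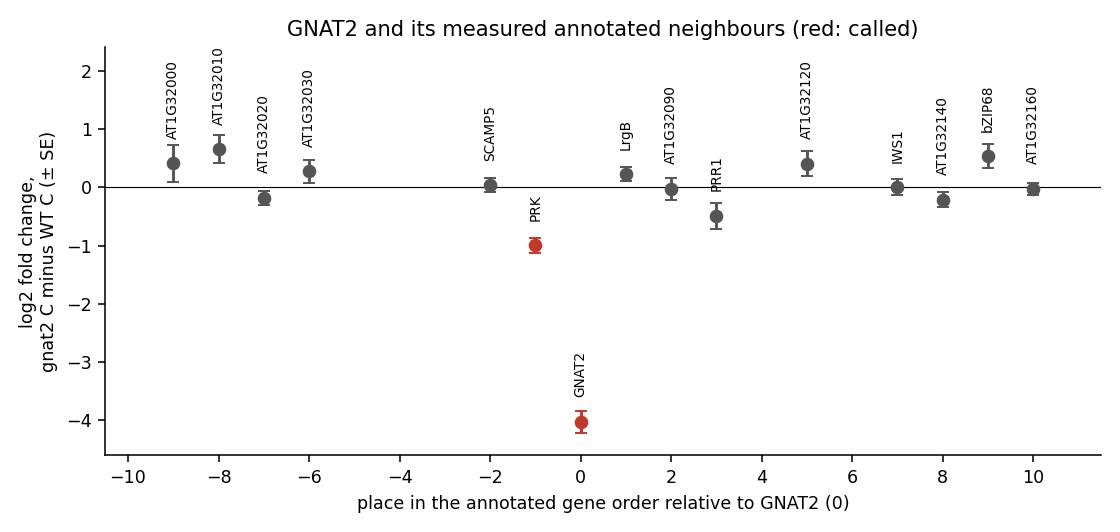
Log2 fold change of *gnat2* C against WT C (points, with the standard error from limma) for *GNAT2* and its measured neighbours, by their place in the annotated gene order. *GNAT2* and *PRK* are the called genes (red), at -4.03 and -0.997, and the 13 other neighbours lie between -0.49 and 0.65.

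Across all transcripts, 361 of 27826 were called at an adjusted p under 0.05, a share of 1.30%. Higher in *gnat2* were 197 transcripts (0.708%), with a median log2 fold change of 0.73, and lower were 164 (0.589%), with a median of -0.61. A change of over 2-fold was estimated for 33 higher and 9 lower transcripts. Among nuclear protein-coding genes the directions were nearly balanced, with 158 higher and 160 lower of 26486, whereas 39 of the 43 called transcripts of other classes were higher. The log2 fold change over all transcripts had a median of -0.01 and a median absolute size of 0.15. Among the called transcripts, the values of 353 did not overlap between the genotypes, which was so for 9.36% of all transcripts. The count depended on single arrays: it was 232, 128, 115 and 137 without *gnat2* C replicate 1, 2, 3 and 4, and 182 and 167 without WT C replicate 2 and 4. A fit to the 8 control arrays alone, which has fewer degrees of freedom, called 97 transcripts and kept 83 of the 361 calls. Most of the 361 calls were thus not made without the arrays of the other lights. Of the 361 transcripts, 80 (43 higher and 37 lower) were called with each of the 8 control arrays left out in turn. Of these 80, 53 were also called in the fit to the 8 control arrays alone. Below, a gene is described as called in every omission when it belongs to these 80, and those of them that were not called in the fit to 8 arrays are pointed out. Of the calls described below that an omission ended, those of *GATA11*, AT4G16235, *U60.1F* and *MES10* were made in the fit to 8 arrays and the others were not.

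**Figure D2:**
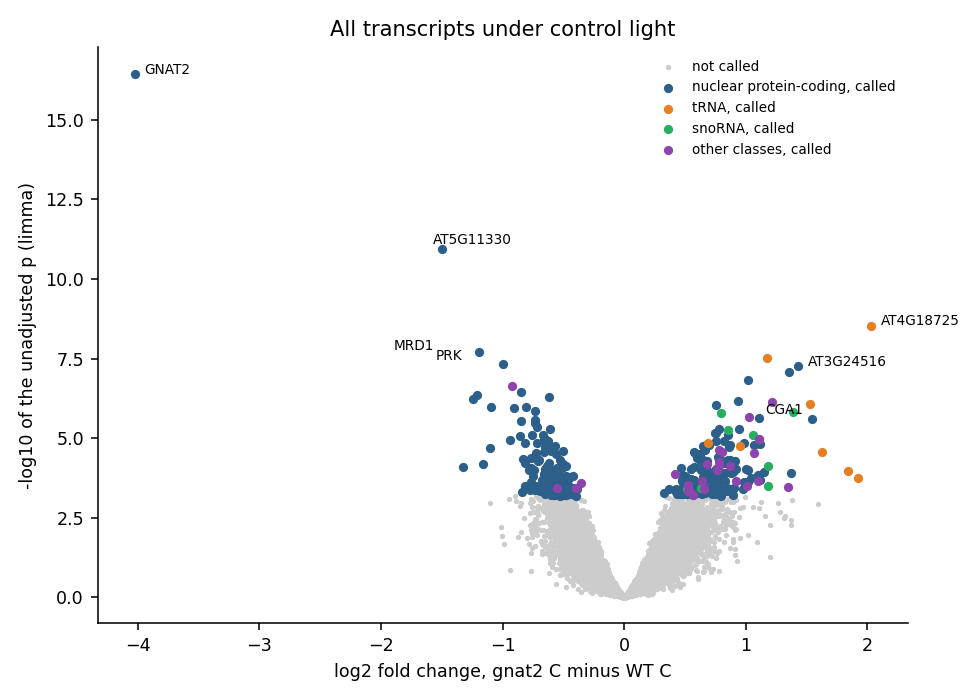
Log2 fold change of *gnat2* C against WT C and -log10 of the unadjusted p from limma for 27826 transcripts, with the 361 called ones coloured by class. *GNAT2* stands apart at -4.03, and the right-hand edge is held by tRNA transcripts, of which AT4G18725 has the highest estimate at 2.03, with all WT values below the array median.

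Among nuclear protein-coding genes, the largest fall after *GNAT2* was that of AT5G11330. Its log2 values were 6.91, 7.22, 6.99 and 7.10 in WT and 5.48, 5.54, 5.59 and 5.64 in *gnat2*, which gave -1.49 ± 0.12 (SE, adjusted p = 1.58e-07). The genotypes lay far apart relative to the spread of either, as they also did for *PGDH* (AT1G17745), which encodes 3-phosphoglycerate dehydrogenase of the plastid pathway to serine. *PGDH* had 4.76, 4.89, 4.43 and 4.53 in WT and 3.82, 3.97, 3.64 and 3.56 in *gnat2*, a log2 fold change of -0.90 ± 0.14 (SE, adjusted p = 0.00153). *MRD1* (AT1G53480), named for its lower level in the methionine-overaccumulating mutant *mto1*, had 2.56, 2.51, 2.66 and 3.21 in WT and 1.64, 1.53, 1.57 and 1.44 in *gnat2*. Its *gnat2* values were all below the array median, so that the log2 fold change of -1.19 ± 0.15 (SE, adjusted p = 1.35e-04) is uncertain in size. *PRA8* (AT3G13720), of the prenylated Rab acceptor family of membrane traffic proteins, had 3.60, 4.14, 3.62 and 3.96 in WT and 2.92, 2.68, 2.68 and 2.67 in *gnat2*, with -1.09 ± 0.17 (SE, adjusted p = 0.00146). AT1G77960 (-1.24), AT3G55240 (-1.21), AT4G21650 (-1.11) and AT3G52470 (-0.94), which the annotation used here does not name, were also among the 12 largest falls and called in every omission, although AT1G77960 and AT4G21650 were not called in the fit to the 8 control arrays (adjusted p = 0.07 and 0.0572). *GOLS2* (AT1G56600) and *LTP2* (AT2G38530), which encode a galactinol synthase and a lipid transfer protein, fell by 1.33 and 1.16 on the log2 scale (adjusted p = 0.0204 and 0.0174). *GOLS2* was not called without WT C replicate 2 or *gnat2* C replicate 3 or 4, and *LTP2* was not called without replicate 2 of either genotype, with adjusted p of up to 0.0731 and 0.068.

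**Figure D3:**
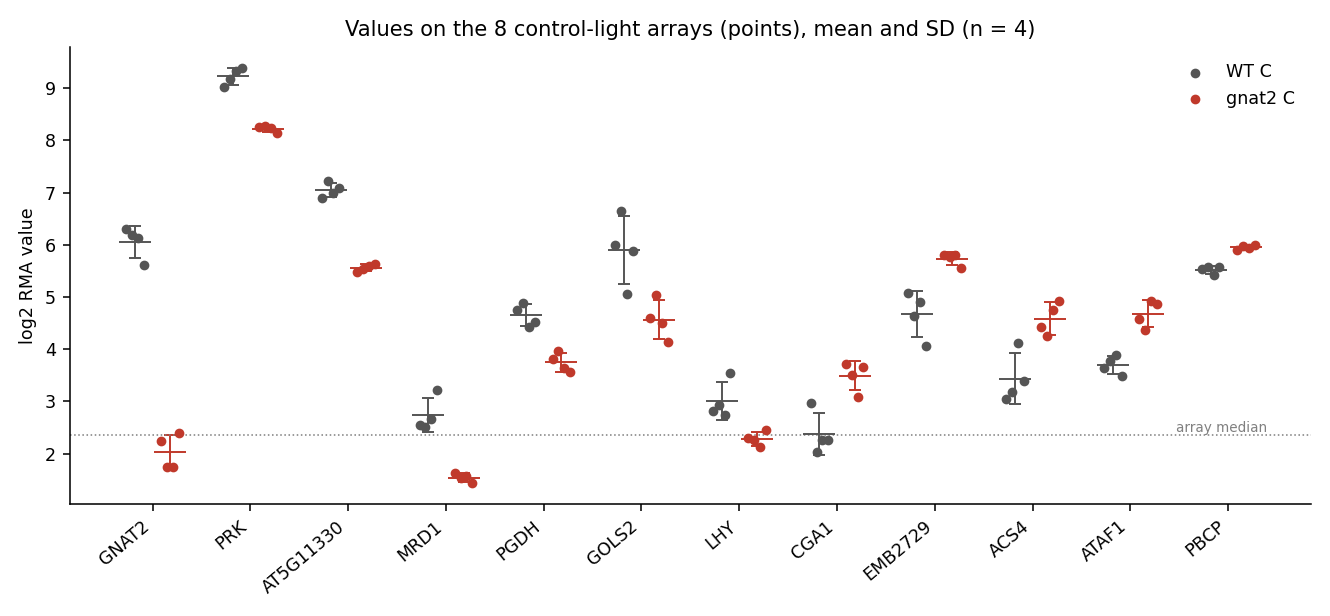
Log2 RMA values of 12 called transcripts on the 4 WT C and the 4 *gnat2* C arrays (points), with their mean and SD, and the array median as a dotted line. In these transcripts the 4 values of one genotype lie on one side of those of the other, by a wide margin for *GNAT2*, *PRK* and AT5G11330 and by a narrow one for *GOLS2*, *CGA1* and *ACS4*.

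Of the 12 largest rises among nuclear protein-coding genes, 5 belonged to genes with a symbol. *CGA1* (AT4G26150), a cytokinin-induced GATA transcription factor that promotes chlorophyll synthesis and chloroplast development, had log2 values of 2.97, 2.04, 2.25 and 2.27 in WT and 3.72, 3.50, 3.09 and 3.65 in *gnat2*. Its log2 fold change was 1.11 ± 0.18 (SE, adjusted p = 0.00247) and was called in every omission, although 3 WT values were below the array median. It was not called in the fit to 8 arrays, by a small margin (adjusted p = 0.0527). *GNC* (AT5G56860), the close relative of *CGA1*, was not called, with a log2 fold change of -0.26 (adjusted p = 0.397). *EMB2729* (AT3G20440), named a branching enzyme and required for embryo development, had 5.07, 4.63, 4.91 and 4.07 in WT and 5.81, 5.77, 5.80 and 5.55 in *gnat2*. It rose by 1.07 ± 0.20 (SE, adjusted p = 0.00764) and was called in every omission. *GATA11* (AT1G08010; 1.37 ± 0.30, adjusted p = 0.0238), *ACS4* (AT2G22810; 1.15 ± 0.25, adjusted p = 0.0223), which encodes an enzyme of ethylene synthesis, and the receptor-like kinase gene *CRK16* (AT4G23240; 1.10 ± 0.25, adjusted p = 0.0252) were higher on all *gnat2* arrays than on any WT array. These 3 calls were lost without WT C replicate 2 or 4 or *gnat2* C replicate 3 or 4, and that of *ACS4* also without WT C replicate 1, with adjusted p of up to 0.0831.

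Of the rises without a symbol, AT3G41762 had the highest values, 8.41, 7.88, 7.35 and 7.69 in WT and 9.20, 9.34, 9.09 and 9.09 in *gnat2* (1.35 ± 0.18, adjusted p = 2.84e-04). AT3G24516 had 1.87, 2.26, 2.05 and 1.82 in WT, all below the array median, and 3.15, 3.42, 3.97 and 3.16 in *gnat2* (1.43 ± 0.18, adjusted p = 2.08e-04). Both were called in every omission, as were AT1G43720 (1.55), AT2G47870 (1.12) and AT2G07684 (1.02). The sizes for AT3G24516, AT1G43720, AT2G47870, AT3G53650 and *CRK16*, and their places among the largest rises, are uncertain, since all their WT values lay below the array median. AT3G53650 (1.12, adjusted p = 0.0303) and AT2G28030 (1.04, adjusted p = 0.0283) were not called in every omission. AT3G53650 was lost without replicate 1 or 3 of either genotype or *gnat2* C replicate 4, and AT2G28030 without WT C replicate 1, 2 or 3 or *gnat2* C replicate 2, 3 or 4, with adjusted p of up to 0.0854 and 0.1.

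The class with the largest share of calls was that of tRNA genes, whose products carry amino acids to the ribosome. Of 61 tRNA transcripts, 9 were called, all higher in *gnat2*, which is 14.8% beside 1.30% of all transcripts, and the class median was 0.34 beside -0.01. The median log2 value over the 61 tRNA transcripts ran from 1.83 to 1.95 in WT and from 2.13 to 2.28 in *gnat2*, and 32 of them had means below the array median in both genotypes. The count was 7 to 9 in single omissions. AT4G18725, a tRNA for glutamate, had 2.20, 1.95, 2.28 and 2.12 in WT and 4.41, 4.02, 4.18 and 4.07 in *gnat2* (2.03 ± 0.22, adjusted p = 2.89e-05), but as all its WT values lay below the array median the size is uncertain. The alanine tRNA AT3G62245 was measured well above the array median in both genotypes, at 5.14, 5.82, 5.54 and 5.24 in WT and 6.65, 6.41, 6.72 and 6.66 in *gnat2* (1.18 ± 0.15, adjusted p = 1.63e-04). The groups of both were clearly separate, and both were called in every omission. So were those for proline (AT1G28730, 1.53), aspartate (AT1G43820, 1.63, and AT2G07743, 1.11), phenylalanine (AT1G68950, 0.95, with all WT values below the array median and an adjusted p of 0.0717 in the fit to 8 arrays) and cysteine (AT2G07763, 0.69).

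The tRNAs AT4G16235 (valine, 1.84 ± 0.40, adjusted p = 0.0216) and AT2G03660 (threonine, 1.92 ± 0.44, adjusted p = 0.0283) were less even. AT4G16235 had 5.03, 4.82, 3.56 and 3.58 in WT against 5.98 to 6.15 in *gnat2*, and AT2G03660 had 5.22 on *gnat2* C replicate 3 against 3.37 to 3.65 on the other *gnat2* arrays. AT4G16235 was not called without replicate 3 or 4 of either genotype or *gnat2* C replicate 2, and AT2G03660 was not called without WT C replicate 3 or 4 or *gnat2* C replicate 3 (adjusted p of up to 0.0711 and 0.115). The calls were not tied to 1 amino acid, since the 9 transcripts are for 8 amino acids. For arginine, 6 tRNA transcripts were measured, none was called and 2 had positive log2 fold changes. Genes for tRNAs of one kind are near-identical copies, so that the probes of one may also report others.

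Small nucleolar RNAs (snoRNAs), which guide the chemical modification of ribosomal RNA, were the class with the next largest share of calls among the noncoding RNAs. Of 68 snoRNA transcripts, 8 were called (11.8% beside 1.30% of all transcripts), all higher in *gnat2*, the class median was 0.34 and 58 had positive log2 fold changes. The class median per array was 3.73 to 3.97 in WT and 4.35 to 4.47 in *gnat2*, without overlap. AT2G05765 was the snoRNA with the highest values among those called in every omission, 7.56, 7.33, 7.04 and 7.36 in WT and 8.26, 8.33, 8.02 and 7.87 in *gnat2* (0.80 ± 0.13, adjusted p = 0.00191, and 0.0526 in the fit to 8 arrays). AT1G07702, with 4.27, 3.00, 3.79 and 3.65 in WT and 5.21, 4.61, 5.29 and 5.18 in *gnat2*, rose by 1.39 ± 0.22 (SE, adjusted p = 0.00178). The genotypes were separate in both. The snoRNA *U60.1F* (AT5G52471) lies within the annotated span of *FIB1*, the gene of the nucleolar protein fibrillarin. *U60.1F*, with all WT values below the array median, rose by 1.19 ± 0.28 (SE, adjusted p = 0.0369, lost without 6 of the 8 control arrays in turn, namely every one but WT C replicate 1 and 3, with adjusted p of up to 0.126), and *FIB1* itself had 0.30 (adjusted p = 0.35). The number of called snoRNAs was 4 without WT C replicate 4 or *gnat2* C replicate 2 and up to 10 without other arrays, and the class median stayed between 0.29 and 0.38.

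The 13 spliceosomal snRNA transcripts had a median of -0.01 with 0 called, and the 174 miRNA gene transcripts, of which 155 were below the array median in both genotypes, had a median of -0.11 with 0 called. Of 92 transcripts of the mitochondrial genome, 5 were called higher and 1 lower in *gnat2* (6.52% beside 1.30% of all transcripts), with a median of 0.19. The lower one was ATMG01190, with 12.24, 12.18, 12.06 and 12.01 in WT and 11.80, 11.85, 11.73 and 11.69 in *gnat2* (-0.35 ± 0.08, adjusted p = 0.0331, up to 0.0995 and lost without WT C replicate 1 or 2 or any *gnat2* C array). The count fell to 1 without *gnat2* C replicate 3. ATMG01070, the called transcript that remained, rose by 1.11, but its values were within 0.00684 of those of the tRNA gene AT2G07743 on every array, so that the signals of these IDs cannot be told apart. Nuclear loci numbered AT2G07, a stretch of chromosome 2 that holds a copy of mitochondrial DNA, were listed after the values were seen. Their count is thus a description. Of 130 transcripts, 9 were called, all higher (6.92%), and 5 were called without WT C replicate 4 or *gnat2* C replicate 2, 3 or 4. The called tRNA genes AT2G07743 and AT2G07763 are among them and are thus counted in both groups. AT2G07 loci that share sequence with the mitochondrial genome cannot be told apart from it. On the plastid genome, 1 of 14 transcripts was called (7.14%). This was ATCG00230, with 6.02, 6.32, 6.45 and 6.59 in WT and 7.48, 7.41, 7.75 and 7.60 in *gnat2* (1.21 ± 0.18, adjusted p = 0.00132, called in every omission).

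**Figure D4:**
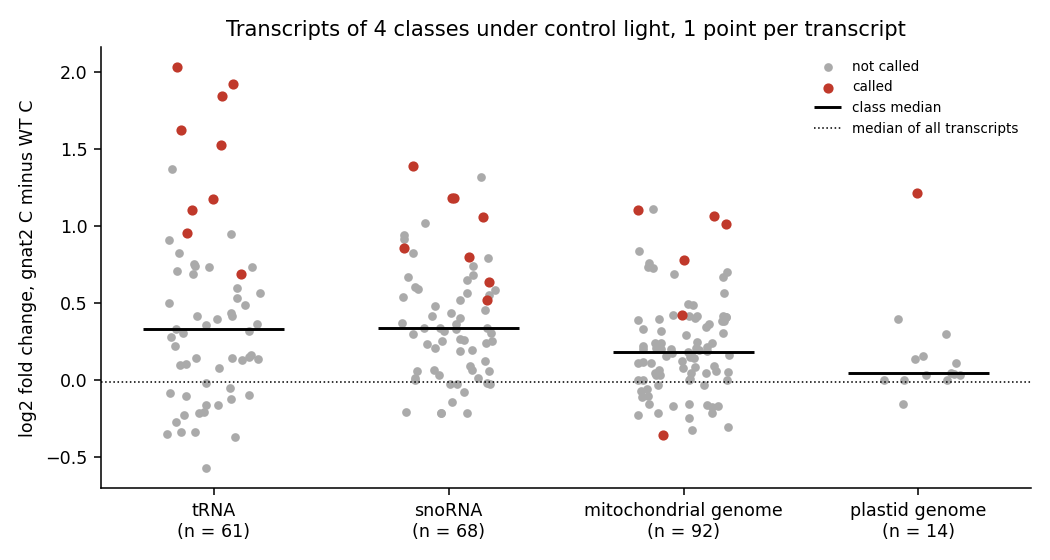
Log2 fold change of *gnat2* C against WT C for each tRNA, snoRNA, mitochondrial-genome and plastid-genome transcript (points, called ones in red), with the class median as a bar and the median of all transcripts as a dotted line. The medians of tRNA and snoRNA transcripts are both 0.34, and those of the mitochondrial and plastid genomes are 0.19 and 0.04.

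Genes of protein synthesis were described next, in lists made by their RefSeq symbols and synonyms. Genes of the same kind without such a name are not in these lists, so that the counts hold for the listed genes only. Of 10 genes named as nucleolar or ribosome assembly proteins, 2 were called, both higher in *gnat2*, 9 had positive values and the median was 0.32, where 1.30% of all transcripts were called and 48.1% had positive values. *NUC-L1* (AT1G48920), the gene of nucleolin, had 9.06, 8.81, 8.97 and 8.79 in WT and 9.49, 9.30, 9.31 and 9.41 in *gnat2* (0.47 ± 0.11, adjusted p = 0.0407). AT5G14520, whose product pescadillo takes part in the maturation of the large ribosomal subunit, had 5.96, 5.45, 5.58 and 5.83 in WT and 6.09, 6.18, 6.33 and 6.14 in *gnat2* (0.48 ± 0.12, adjusted p = 0.045). The groups of both were separate by small margins, and both calls were lost without WT C replicate 2 or 4 or any *gnat2* C array, and that of AT5G14520 also without WT C replicate 3, with adjusted p of up to 0.14. *NOP56* (0.48, adjusted p = 0.166) and *AtNug2* (0.29, adjusted p = 0.293) were not called.

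The 10 genes named as aminoacyl-tRNA synthetases, which charge tRNAs with amino acids, all had positive log2 fold changes, with a median of 0.17, and 0 were called. Synthetase genes that go by other names are not in this list and were not counted, also where they were called. The lowest adjusted p among these 10 was 0.134, for *ERS* (AT5G64050), with 6.29, 6.22, 6.54 and 6.39 in WT and 6.76, 6.65, 6.62 and 6.78 in *gnat2* (0.34 ± 0.11). Of 25 translation initiation factors, 1 was called (4.00% beside 1.30% of all transcripts) and 19 had positive values, with a median of 0.06. This was *EIF2 ALPHA* (AT5G05470), a subunit of the factor that brings the initiator tRNA to the ribosome, with values between 4.50 and 5.15 in WT and between 5.35 and 5.58 in *gnat2* (0.60 ± 0.12, adjusted p = 0.0138, and 0.0519 without *gnat2* C replicate 2). The genes of its other subunits, *EIF2 GAMMA* (0.33, adjusted p = 0.305) and *EIF2 BETA* (0.31, adjusted p = 0.305), were not called.

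The 23 ribosomal proteins whose names place them in plastids or mitochondria had a median of 0.10. Of them, 2 were higher in *gnat2* and none lower (8.70% called beside 1.30% of all transcripts). These were the plastid proteins *RPL12-A* (AT3G27830; 0.48 ± 0.11, adjusted p = 0.0304) and *RPL3P* (AT3G17465; 0.50 ± 0.12, adjusted p = 0.0357), and neither was called without *gnat2* C replicate 2, 3 or 4. *RPL12-A* was also lost without replicate 1 of either genotype and *RPL3P* without WT C replicate 2 or 4, with adjusted p of up to 0.096 and 0.119. Of the 44 other genes named as ribosomal proteins, whose median was 0.09, 1 was called (2.27%) and it was lower. *RPL27AB* (AT1G23290) had 6.15, 6.29, 6.39 and 6.78 in WT and 5.57, 5.49, 5.62 and 5.53 in *gnat2* (-0.85 ± 0.12, adjusted p = 8.96e-04), and was called in every omission. *RPS15* (0.47, adjusted p = 0.0551), *rps15ae* (0.68, adjusted p = 0.0726) and *SAG24* (0.54, adjusted p = 0.096) had positive values and were not called. Ribosomal protein genes that the RefSeq names do not show as such are in neither list and were not counted, also where they were called. The counts and directions thus hold for the listed genes only.

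The genes of the process for which GNAT2 is best known changed little. Of 21 genes of state transitions and light-harvesting complex II, 1 was called (4.76% beside 1.30% of all transcripts), with a median of -0.01. This was *PBCP* (AT2G30170), the gene of the phosphatase of photosystem II core proteins, with 5.53, 5.57, 5.42 and 5.57 in WT and 5.90, 5.98, 5.94 and 5.99 in *gnat2* (0.43 ± 0.10, adjusted p = 0.0407). The groups were separate, but the call was lost when any 1 of the 8 control arrays was left out, with adjusted p of up to 0.103. The kinases *STN7* (0.05) and *STN8* (0.15) and the phosphatase *TAP38* (-0.04), which set the phosphorylation of the antenna and of photosystem II, had adjusted p of 0.606 or higher. Nor were the photosystem I subunits of the docking site, *PSAH1* (0.27, adjusted p = 0.187), *PSAL* (-0.27, adjusted p = 0.176) and *PSAO* (0.25, adjusted p = 0.166), although their genotypes did not overlap.

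Of 21 photosystem and thylakoid subunits, 0 were called, with log2 fold changes between -0.36 and 0.14 and a median of -0.03. The lowest adjusted p was that of *PSBQ2* (AT4G05180), an extrinsic subunit of the oxygen-evolving complex, with 10.61, 10.63, 10.63 and 10.65 in WT and 10.32, 10.27, 10.32 and 10.27 in *gnat2* (-0.34 ± 0.10, adjusted p = 0.0825). *PSBQ2* thus had separate and narrow groups without passing the threshold. *PSAD1* and *PSAD2*, the genes of the ferredoxin-docking subunit of photosystem I, both had -0.36 (adjusted p = 0.257 and 0.186). Of 24 Calvin-Benson cycle genes, 2 were called (8.33% beside 1.30% of all transcripts), with a median of 0.01. *PRK* was lower and *PGK2* (AT1G56190), a phosphoglycerate kinase, higher. *PGK2* had 6.23, 6.46, 6.16 and 6.04 in WT and 6.64, 6.93, 6.93 and 6.90 in *gnat2* (0.62 ± 0.13, adjusted p = 0.0207), and was not called without WT C replicate 4 or *gnat2* C replicate 2, 3 or 4 (adjusted p of up to 0.0726). *RBCS2B* of the Rubisco small subunit had -0.56 (adjusted p = 0.127) and *CP12-1*, a regulator that binds PRK, -0.25 (adjusted p = 0.204).

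The next 4 genes were picked from the called transcripts after their values were seen. *SCA3* (AT2G24120), the phage-type RNA polymerase of plastids, had 5.80, 5.29, 5.98 and 5.63 in WT and 6.17, 6.33, 6.25 and 6.41 in *gnat2* (0.62 ± 0.12, adjusted p = 0.0116). *MGP3* (AT1G68990), the corresponding enzyme of mitochondria, had 3.94, 3.63, 4.27 and 4.22 in WT and 4.62, 4.58, 4.86 and 4.68 in *gnat2* (0.67 ± 0.13, adjusted p = 0.00764). A further gene of this polymerase family, AT5G15700, was not called (0.24 ± 0.14, adjusted p = 0.42), and its groups overlapped. The co-chaperonin genes of plastids and mitochondria were also higher, *CHL-CPN10* (AT2G44650; 0.57 ± 0.11, adjusted p = 0.0102) and *CPN10* (AT1G14980; 0.47 ± 0.10, adjusted p = 0.0208). *SCA3*, *MGP3* and *CHL-CPN10* were called in every omission, but *SCA3* and *MGP3* were not in the fit to 8 arrays (adjusted p = 0.105 and 0.0894), whereas *CPN10* was lost without WT C replicate 2 or *gnat2* C replicate 3 or 4 (adjusted p of up to 0.0803). The 9 chaperonin genes were listed because of the calls of *CHL-CPN10* and *CPN10*, the 2 called among them. This count is therefore a description and is not read against the 1.30% of all transcripts.

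Genes of 2 mutant collections, put together after the values were seen, leaned to positive values, so that their values are given as a description. Of 260 genes named embryo-defective, 8 were higher and 1 lower (3.46% called beside 1.30% of all transcripts), 187 had positive log2 fold changes (71.9% beside 48.1% of all transcripts) and the median was 0.12. Of 42 genes named pigment-defective or chloroplast biogenesis, *SCA3* and *ECB2* were higher (4.76% called), 34 had positive values (81.0%) and the median was 0.17. The call of *ECB2* was lost in every omission but that of WT C replicate 1, with adjusted p of up to 0.132. On the arrays, the medians of the pigment-defective and chloroplast biogenesis genes were 5.75 to 6.06 in WT and 6.14 to 6.23 in *gnat2*, and those of the embryo-defective genes 4.98 to 5.09 and 5.13 to 5.19. The embryo-defective calls numbered 2 without *gnat2* C replicate 3 or 4, while the median stayed between 0.10 and 0.14 in all omissions.

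Of the 361 called transcripts, 5 more were picked for description after their values were seen, and no list stands behind them. *ATAF1* (AT1G01720), a NAC transcription factor of abscisic acid and stress responses, had 3.64, 3.77, 3.89 and 3.49 in WT and 4.57, 4.36, 4.93 and 4.86 in *gnat2* (0.99 ± 0.18, adjusted p = 0.00743). *EIL3* (AT1G73730), also called SLIM1, a regulator of the response to sulfur limitation, was lower, with 5.08, 4.66, 4.72 and 5.08 in WT and 4.23, 3.84, 4.33 and 4.29 in *gnat2* (-0.72 ± 0.13, adjusted p = 0.00739). *MYC4* (AT4G17880), a jasmonate-responsive transcription factor, fell by 0.72 on the log2 scale (SE 0.12, adjusted p = 0.00401), and *HB-12* (AT3G61890), a homeodomain factor of water-deficit responses, by 0.67 (SE 0.12, adjusted p = 0.00564). All 4 were called in every omission, but *EIL3* was not called in the fit to 8 arrays (adjusted p = 0.0794). *SERAT2;2*, which makes the precursor of cysteine in mitochondria, fell by 0.52 (adjusted p = 0.0331), a call that was lost in every omission but that of WT C replicate 1 (adjusted p of up to 0.115).

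The lists of stress and hormone pathways gave few calls. Of 21 genes of cold, dehydration and raffinose synthesis, *GOLS2* was the 1 called (4.76% beside 1.30% of all transcripts). In this list 18 had negative values and the median was -0.25. *COR47* (AT1G20440), a dehydrin gene, had 8.56, 8.54, 7.80 and 8.18 in WT and 7.63, 7.68, 7.17 and 7.30 in *gnat2* (-0.83 ± 0.25, adjusted p = 0.101). *KIN2* (-0.70, adjusted p = 0.118) and *RD29A* (-0.85, adjusted p = 0.155) also had separate groups and were not called, and the upstream factors *CBF1*, *CBF2* and *CBF3* had log2 fold changes between -0.05 and 0.07. Of 18 jasmonate genes, 0 were called, 15 had negative values and the median was -0.15. *JAZ10*, a repressor of the pathway, had -0.58 (adjusted p = 0.317) and the storage protein gene *VSP2* 0.43 (adjusted p = 0.363). *MYC4*, described above as called and lower in *gnat2*, is not in this list. The 17 salicylate and defence genes, with *NPR1* at 0.34 (adjusted p = 0.354), and the 12 genes of oxidative stress and plastid signalling had 0 called and medians of 0.08 and 0.04. The 9 genes of ascorbate synthesis and of acetylated arginine precursors had 0 called and a median of 0.23, with *GME*, an enzyme of ascorbate synthesis, at 0.33 (adjusted p = 0.103).

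Of 18 clock genes, *LHY* (AT1G01060), a morning-expressed repressor, was the 1 called (5.56% beside 1.30% of all transcripts). It had 2.82, 2.93, 2.74 and 3.55 in WT and 2.30, 2.25, 2.13 and 2.45 in *gnat2* (-0.72 ± 0.17, adjusted p = 0.0374). The call was lost without WT C replicate 2 or 4 or any *gnat2* C array, with adjusted p of up to 0.116. *CCA1*, the partner of *LHY*, had 0.08 (adjusted p = 0.88), the evening genes *TOC1* and *ELF3* -0.23 (adjusted p = 0.656) and -0.62 (adjusted p = 0.177), and the median of the clock list was -0.02.

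Other families with more than 1 called member were chosen because of these calls, so that their counts are a description and are not read against the 1.30% of all transcripts that were called. Of 30 GATA factor genes, *GATA11* and *CGA1* were higher, and *GATA27* (-0.76, adjusted p = 0.00564) and *ZML1* (-0.67, adjusted p = 0.0407) lower. Of 20 methyl esterase genes, *MES8* (0.89, adjusted p = 0.0192) and *MES17* (0.77, adjusted p = 0.043) were higher and *MES10* (-0.66, adjusted p = 0.0105) and *MES4* (-0.66, adjusted p = 0.0374) lower. Of 21 3-ketoacyl-CoA synthases, which elongate fatty acids for waxes and membrane lipids, *KCS3* and *KCS20* were lower, both at -0.65 and both called in every omission, although *KCS3* was not called in the fit to 8 arrays (adjusted p = 0.0808). The values of *MES4* on all arrays, of *MES8* in WT and of *GATA27* in *gnat2* lay below the array median. *KCS20* had 5.89, 5.97, 5.95 and 6.01 in WT and 5.42, 5.38, 5.16 and 5.27 in *gnat2*. The polyubiquitin genes *UBQ10* (-0.49, adjusted p = 0.0402) and *UBQ3* (-0.81, adjusted p = 0.0169), of which *UBQ10* is widely used as a reference gene, were lower in *gnat2*. *UBQ10* had 7.26, 7.25, 7.04 and 7.07 in WT and 6.68, 6.64, 6.74 and 6.61 in *gnat2*. Single omissions ended several of these calls. *ZML1* was lost without any array but WT C replicate 1 and *gnat2* C replicate 3 (adjusted p of up to 0.118), *MES17* without any but *gnat2* C replicate 3 (0.119) and *UBQ10* without any but WT C replicate 3 (0.0997). *MES4* was lost without any array but replicate 2 of either genotype (0.114), *MES8* without WT C replicate 4 or *gnat2* C replicate 2 or 4 (0.0703), *UBQ3* without WT C replicate 2 or 4 or *gnat2* C replicate 4 (0.0613), and *MES10* without *gnat2* C replicate 3 (0.0514).

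The differences under control light were then set beside those in D and HL, which were measured on other plants and arrays of the same genotypes. The fits share 1 estimate of the spread per transcript, so that the calls in the 3 lights are not fully independent. Of the 361 transcripts, 325 had the same sign in D (90.0% beside 64.5% of all transcripts) and 323 in HL (89.5% beside 64.4%). The transcripts higher under control light had median log2 fold changes of 0.36 in D and 0.36 in HL, and the lower ones -0.37 and -0.34, all smaller than the medians of 0.73 and -0.61 by which they had been called. In D, 123 of them were also called, which is 34.1% of the control-light calls and 11.3% of the 1090 D calls (3.92% of all transcripts). In HL, 83 were also called, which is 23.0% of the control-light calls and 15.6% of the 533 HL calls (1.92%). In all 3 lights, 45 were called, 23 higher and 22 lower, each with the same sign throughout.

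*GNAT2*, *PRK*, AT5G11330, *MRD1*, *PGDH*, AT4G21650, AT3G24516 and the glutamate tRNA AT4G18725 were among those called in every light. *PRK* had log2 fold changes of -0.91 in D and -1.45 in HL, AT5G11330 -1.33 and -1.51, and *MRD1* -1.88 and -1.60. Other transcripts differed most under control light: *CGA1* had -0.07 in D (adjusted p = 0.881) and 0.19 in HL (adjusted p = 0.693), *PRA8* -0.29 (adjusted p = 0.364) and -0.07 (adjusted p = 0.899), *EMB2729* 0.38 (adjusted p = 0.31) and -0.03 (adjusted p = 0.972), and *GOLS2* -0.43 (adjusted p = 0.429) and -0.27 (adjusted p = 0.724). The difference itself was tested as the control-light effect minus the mean of those in D and HL. By this test in limma 0 transcripts were called, with 1734 at an unadjusted p under 0.05 (6.23% of all) and a lowest adjusted p of 0.244, and 0 by the unmoderated test. For *CGA1* the difference was 1.05 ± 0.22 (SE, adjusted p = 0.32). No transcript was thus shown to differ between the genotypes by another amount under control light than in D and HL.

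The tRNA and snoRNA classes kept their sign in the other lights. The median log2 fold change of tRNA transcripts was 0.27 in D and 0.30 in HL, and that of snoRNA transcripts 0.13 and 0.27. The array medians of tRNA transcripts did not overlap between the genotypes in D (1.67 to 1.97 in WT and 2.13 to 2.49 in *gnat2*) or HL (1.90 to 2.08 and 2.21 to 2.47), and those of snoRNA transcripts did not either (3.63 to 4.06 and 4.15 to 4.47 in D, 4.02 to 4.35 and 4.51 to 4.72 in HL). The nucleolar list, in contrast, had medians of -0.03 in D and 0.12 in HL, the aminoacyl-tRNA synthetases 0.04 and -0.03, the pigment-defective and chloroplast biogenesis genes 0.04 and -0.04 and the embryo-defective genes 0.04 and 0.01. Differences between the lights were not tested for lists.

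**Figure D5:**
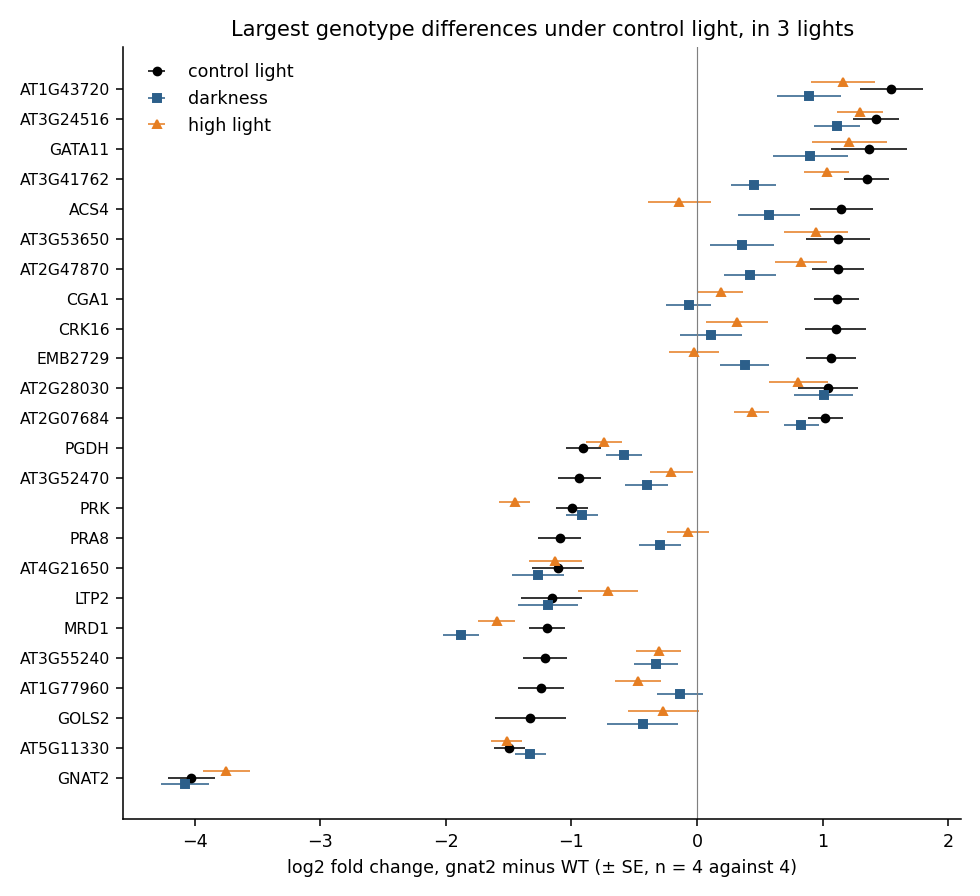
Log2 fold change of *gnat2* against WT with its standard error in control light, darkness and high light for the 12 largest falls and 12 largest rises called under control light. *GNAT2*, AT5G11330, *PRK* and *MRD1* lie far from 0 in all lights, whereas *CGA1*, *PRA8* and *GOLS2* lie nearer to 0 in darkness and high light than in control light.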

How the data were processed

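The deposited values are log2 signals of 1 Affymetrix Arabidopsis gene array per plant sample. The authors grouped the probes by TAIR genes through a custom chip definition file and applied RMA background correction and quantile normalization to the 24 arrays. Precision is limited by having 4 arrays per group. Names and classes come from the RefSeq table of TAIR10.1, which lists 27241 of the 27826 transcripts, and 585 were not listed.

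Here, limma 3.58.1 in R 4.3.3 was fitted to all 24 arrays with 6 group means (18 residual and 6.05 prior degrees of freedom). The main contrast was *gnat2* C minus WT C, and a second one subtracted the mean of the differences in D and HL. Tests were two-sided and adjusted by Benjamini-Hochberg over all transcripts. In simulated data, 28.0%, 92.0%, 100% and 100% of transcripts changed by 0.5, 1, 1.5 and 3 on the log2 scale were recovered under control light. There, 5 unchanged transcripts were also called. The simulated noise was normal, independent and of 1 spread per transcript in all groups, whereas the SD was larger in WT for 69.5% of transcripts. Recovery on the real arrays may therefore differ.

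Named genes are the GNAT family, the 12 largest called rises and 12 falls of nuclear protein-coding genes, the 4 largest called changes of other classes, called neighbours of *GNAT2*, and up to 4 members of each list with the smallest p. Others were chosen after their values were seen, among them the other called tRNAs, the snoRNAs and the organelle transcripts. Members and lists were chosen with earlier results of these data known. Lists were described without a test. The alternatives were a replicate block, an unmoderated test, an intensity trend with a robust prior, array weights, low values left out, other normalizations, fewer arrays and a fold limit. The proteome and acetylome were not analysed here.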

Additional observations from a re-analysis of the deposited data

Results flagged for a closer look

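Among the 180 groups of 4 arrays examined (90 named transcripts in 2 genotypes), 15 (8.33%) held an array far from the other 3, where chance alone gives about 5%. In *gnat2*, *EMB2729* had 5.55 on replicate 4 against 5.77 to 5.81, AT2G28030 3.23 on replicate 2 against 2.72 to 2.80, *PRA8* 2.92 on replicate 1 against 2.67 to 2.68, and the tRNA AT2G03660 5.22 on replicate 3 against 3.37 to 3.65. *PSAL* had 9.02 on replicate 1 against 9.19 to 9.22, *PSBY* 6.53 on replicate 4 against 6.13 to 6.17, *PGK2* 6.64 on replicate 1 against 6.90 to 6.93, and *KIN2* 8.72 on replicate 2 against 8.30 to 8.36. *AOC1* had 5.49 on replicate 3 against 4.61 to 4.66, and *VTC5* 5.01 on replicate 1 against 4.78 to 4.82. In WT, AT2G28030 had 2.61 on replicate 4 against 1.45 to 1.64, AT4G21650 5.84 on replicate 2 against 5.33 to 5.37, *PSAD1* 5.90 on replicate 2 against 6.16 to 6.21, *CBP60G* 2.04 on replicate 4 against 2.43 to 2.47, and *AOC1* 4.65 on replicate 4 against 5.48 to 5.62. For AT2G28030, 1 array stood apart in each genotype, and the log2 fold change lay between 0.92 and 1.30 with single arrays left out. For *AOC1*, which was not called, both arrays that stood apart lay at the level of the other genotype.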

How the results depend on the processing

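The count of 361 was 97 with the 8 control arrays alone and 42 with an absolute log2 fold change above 1 in addition, and single omissions gave 115 to 387. The second contrast called 0 in each alternative except the omissions, which gave 0 to 1 (1 without WT C replicate 2). Other counts ran from 296 for the protein-coding genes alone to 431 with the replicate number as a block, where 329 of the 361 calls were kept. Replicate numbers were not taken to pair the samples, because the deviations of same-numbered arrays correlated by only 0.06 to 0.15, although 7 of 8 arrays correlated best with their own number, a hint from the data and not from the design. Of the 37 called transcripts named by rule, 36 were kept with the block (AT5G14520 was lost, adjusted p = 0.0532, as was *MES17*, chosen after its values were seen, with 0.0507), 28 under every alternative fitted to all arrays in which they were tested (all but *LHY*, *GATA11*, *CRK16*, *NUC-L1*, AT2G28030, AT3G53650, AT4G16235, AT2G03660 and AT5G14520), 20 in every omission and 19 in the fit to 8 arrays, and 0 reversed. Cyclic loess gave 322, of which 60.6% were higher, beside 54.6%. Fits with fewer arrays also have fewer degrees of freedom, and the cause of these shifts was not tested.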

Other observations

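Transcripts outside the classes described above were called in shares near that of all transcripts (1.30%). Of 390 other noncoding transcripts, 6 were higher and 2 lower in *gnat2* (2.05%), from AT4G17098 (log2 fold change 1.03, adjusted p = 0.00235) to AT1G69252 (-0.92, adjusted p = 6.30e-04), both of which were called in every omission. The count was 4 without WT C replicate 4 or any *gnat2* C array. Of 479 nuclear transcripts that the RefSeq table does not list, 9 were higher and 1 lower (2.09%), with the largest change in AT5G17233 (1.35, adjusted p = 0.0377, up to 0.0941 and lost without WT C replicate 4 or any *gnat2* C array), and 1 call was left without WT C replicate 4. The 5 transcripts with the smallest p for the difference between control light and the other lights, none of them called, were *NRP2*, a histone chaperone gene (1.04, adjusted p = 0.244), *mSFC1*, a mitochondrial carrier gene (-0.93, adjusted p = 0.32), AT1G67050 (0.81), AT5G41830 (-0.73) and *CGA1* (1.05).

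Among nuclear protein-coding transcripts divided into 4 classes of equal size by their mean value on the 8 control arrays, 15, 66, 144 and 93 were called from the lowest to the highest class, and the median log2 fold changes were -0.04, 0.02, -0.02 and 0.00.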
